A study of Homo sapiens with 15 samples.

Results

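Zinc finger genes whose names begin with ZNF were examined in LNCaP cells, an androgen-sensitive human prostate cancer cell line, in which 1 of 4 chromatin proteins had been knocked down. The members were the genes named ZNF followed by digits and at most 1 letter whose level, averaged over all libraries, was at least 3 RPKM (a read count scaled by transcript length and library depth). There were 269 such genes among 26443 gene names with values, and among 528 ZNF genes with values. The members were thus selected on their overall level, and the differences between groups were not used. One further gene that met the rule is not analysed here.

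RNA-seq had been run on 15 libraries in 5 groups of 3. All cells were labelled as wild type, were grown in RPMI with serum and carried a lentiviral short hairpin for 4 to 5 days. The reference group, pLKO, carried the control vector, and the groups shPALI1, shG9a, shJarid2 and shsuz12 were depleted of PALI1, G9a, JARID2 and SUZ12 in turn. SUZ12 is a core subunit of PRC2, the complex that methylates histone H3 at lysine K27, and JARID2 and PALI1 are accessory proteins of that complex. PALI1 is encoded at the LCOR locus, and G9a, the product of EHMT2, methylates histone H3 at K9. The labels name 1 hairpin for each target and do not say that the libraries of a group came from separate cultures, so the p-values measure only how far these libraries scatter, and that scatter may be technical.

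ZNF genes encode proteins built from C2H2 zinc fingers, small zinc-binding loops that are strung together to read DNA. The largest group carries a KRAB domain, which recruits the corepressor TRIM28 and with it SETDB1, HP1 proteins and the NuRD complex, and many of these proteins silence retroelements. The genes arose by repeated duplication and lie in clusters, many of them on chromosome 19, whose bodies are known to carry H3K9 methylation.

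Of the 269 members, 268 were matched to GENCODE release 29 (GRCh38), and 263 of those had a protein. A KRAB domain was found in 154 proteins and not found in 109. The members had a median of 10 fingers and at most 33. Chromosome 19 held 112 of them, 88 with KRAB, and the rest lay on the other 20 chromosomes that held any. Of the members, 5 were transcribed pseudogenes by annotation. The unmatched member, ZNF812, is listed by RefSeq as the pseudogene ZNF812P.

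A stretch of promoter was shared by some of the KRAB members. Within the window from 250 bases before to 50 bases after the RefSeq start (GRCh38.p14), 17 of the 229 members with a promoter in the table had the word CCAATCAG followed, after 5 to 120 bases, by CTTCCGG. This pair was searched on both strands. All 17 had KRAB (12.5% of the 136 KRAB members with a promoter), and none of the 93 members without KRAB had it. By comparison, the pair stood in 0.141% of the 7092 other genes with a mean of at least 3 RPKM. Over all 27305 genes of the promoter table, it stood in 0.22%. Alone, CCAATCAG stood in 16.6% of members and 4.75% of all genes of that table, and CTTCCGG in 44.5% and 12.2%. CCAAT is the core read by the factor NF-Y, and CTTCCGG holds the reverse complement of the core read by ETS factors. The words were noticed in these promoters after the values had been seen, and a match is a description of letters, not a bound site. Of the stretches, 8 are printed 5′ to 3′ on the strand of the gene, because they let the likeness between genes on separate chromosomes be seen. The first CCAATCAG and the CTTCCGG are in capitals, and any further CCAATCAG between them is left in lower case.
ZNF124 (chr1:247172019-247172100, minus strand): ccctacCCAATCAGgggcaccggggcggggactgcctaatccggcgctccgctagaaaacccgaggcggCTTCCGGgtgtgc
ZNF669 (chr1:247104372-247104453, minus strand): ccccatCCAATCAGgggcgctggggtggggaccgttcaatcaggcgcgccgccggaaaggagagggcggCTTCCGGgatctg
ZNF431 (chr19:21141947-21142028, plus strand): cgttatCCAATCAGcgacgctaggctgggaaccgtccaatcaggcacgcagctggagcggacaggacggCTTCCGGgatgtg
ZNF737 (chr19:20565792-20565873, minus strand): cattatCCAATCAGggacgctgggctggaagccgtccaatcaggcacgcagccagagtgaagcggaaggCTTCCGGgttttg
ZNF195 (chr11:3379174-3379255, minus strand): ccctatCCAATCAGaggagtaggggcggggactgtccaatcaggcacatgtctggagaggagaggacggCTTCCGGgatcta
ZNF680 (chr7:64563083-64563164, minus strand): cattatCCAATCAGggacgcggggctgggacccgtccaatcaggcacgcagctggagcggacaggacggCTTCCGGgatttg
ZNF107 (chr7:64666046-64666127, plus strand): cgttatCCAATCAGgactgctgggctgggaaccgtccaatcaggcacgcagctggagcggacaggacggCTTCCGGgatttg
ZNF91 (chr19:23395483-23395535, minus strand): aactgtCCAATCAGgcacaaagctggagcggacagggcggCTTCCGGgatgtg
Counted from the first CCAATCAG, the words were 55 bases apart in 11 of the 17 members and 54 apart in 3. The 17 lay on 6 chromosomes. In ZNF91, a repressor of SVA retrotransposons, the words were 26 bases apart. The stretches of ZNF431, ZNF737, ZNF195, ZNF680 and ZNF107 hold a second CCAATCAG, which also stands 26 bases before CTTCCGG. The spacing of ZNF91 is thus that of this second copy.

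The hairpins lowered their targets. Relative to the pLKO mean, C10orf12 (the part of the LCOR locus that PALI1 takes in) stood at 23.8% in shPALI1, EHMT2 at 25.7% in shG9a, JARID2 at 18.3% in shJarid2 and SUZ12 at 12.5% in shsuz12. LCOR itself was also called lower in shPALI1, at 60%. Some targets also passed the test in other groups. EHMT2 was lower in shJarid2 (71.5%) and shsuz12 (80.3%), and JARID2 (141%) and LCOR (158%) were higher in shsuz12. The luminal gene KLK3, which encodes prostate-specific antigen, was at 1108 RPKM in pLKO and at 27.1%, 32.9%, 55.4% and 53.6% of that level in shPALI1, shG9a, shJarid2 and shsuz12. TMPRSS2 was lower in all 4 as well (28.8%, 64.6%, 66.2% and 44.3%), and KLK2 was at 25.8% in shPALI1. Of the markers of other cell types, KRT5 and TP63 (basal), COL1A2 (fibroblast), CDH5 and PECAM1 (endothelial), PTPRC and CD3E (immune) and CHGA and INSM1 (neuroendocrine) were at or near 0 in every group. Others were not: COL1A1 was at 4.52 RPKM and CD68 at 2.74 RPKM in pLKO, KRT14 reached 4.02 RPKM in shJarid2, COL3A1 2.02 in shPALI1, VWF 2.35 in shG9a and SYP 4.88 in shsuz12. The part of these marker changes in the members' values was not tested. Depth, read from the steps between low values, was 10.56 to 19.36 M reads per library, so that 1 RPKM of a 2 kb transcript was 21.1 to 38.7 reads. Replicate 3 of shJarid2 stood apart from its group (correlation with the other two 0.975 and 0.978, against 0.986 to 0.992 within the other groups), and results for shJarid2 are also given without it. Counting of reads that fit several near-identical ZNF genes is not given in the sources used here, so levels of close paralogs are uncertain.

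Most members were modestly expressed. The median of their mean levels was 5.85 RPKM, 101 lay under 5, 49 reached 10 and 10 exceeded 20. ZNF207 (BUGZ, which binds BUB3 in spindle assembly) was highest at 64.6 RPKM, followed by ZNF664 at 61.0, ZNF217 at 45.1, ZNF511 at 36.6 and ZNF358 at 32.3. None of these 5 genes had a KRAB domain. KRAB members had a lower median level (5.17 RPKM) than members without KRAB (7.29 RPKM). ZNF57 (3.01), ZNF702P (3.04) and ZNF10 (3.05 RPKM) lay just inside the threshold, and ZNF823 (2.98), ZNF583 (2.95) and ZNF548 (2.93 RPKM) just outside. All 269 members passed the filter on low values (RPKM 1 or more in 3 or more libraries), 211 were at 3 or more in every group, and 13 would fall below the threshold if a single group were left out. Such a member had to be high in that group, so its difference there is partly a product of the rule.

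In PALI1-depleted cells, ZNF genes rose more often than they fell. Against pLKO, 85 members were higher and 19 lower (31.6% and 7.06%), whereas 16.5% of all 12715 genes tested were higher and 25.1% lower. The median difference in log2(RPKM + 1) was 0.12 for members and -0.05 for all genes tested. Here and below, a gene was called where limma's moderated test gave a Benjamini-Hochberg adjusted p under 0.05 over all genes tested, and differences are on the log2(RPKM + 1) scale, which understates changes of low genes. Every shPALI1 library had a higher sum of member RPKM (2212.9, 2277.1 and 2272.9) than any other library (1954.2 to 2108.1). As a share of all RPKM the libraries were not set apart. That share was 0.7686%, 0.8291% and 0.8515% in shPALI1 and 0.6251% to 0.8259% in the other libraries. After a correction for transcript GC content and length, 97 members were higher and 30 lower (36.1% and 11.2%), with a median of 0.10. With that correction, 19.9% of all genes tested were higher and 29.5% lower. In bulk RNA, fewer cells that express a gene and less RNA per cell cannot be told apart.

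The gain was spread over structural classes. Of the KRAB members 53 of 154 rose and 9 fell, and of the members without KRAB 30 of 109 rose and 9 fell, with medians of 0.13 and 0.11. On chromosome 19, 34 of 112 rose and 8 fell, and on other chromosomes 50 of 156 rose and 11 fell. The 164 tested ZNF genes below the threshold had 43 higher and 5 lower. In other zinc finger families with a mean of at least 3 RPKM, 13 of 48 genes rose and 8 fell, among them 6 higher and 1 lower of 9 ZSCAN genes and 4 higher and 7 lower of 27 ZBTB genes. Members had a median transcript GC content of 44.9%, against 49.4% over all genes tested. Of the 90 members with the lowest GC 31 rose and 4 fell (median 0.15), and of the 90 with the highest GC 22 rose and 8 fell (median 0.04). With the correction, the medians of these 2 sets were 0.09 and 0.11. The other genes with a mean of at least 3 RPKM in the same GC ranges had uncorrected medians of -0.01 and -0.14.

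The largest rise in shPALI1 was that of ZNF812. It measured 2.05, 2.06 and 1.66 RPKM in pLKO and 6.92, 8.35 and 8.08 in shPALI1, so that the means went from 1.93 ± 0.23 to 7.78 ± 0.76 (SD, n = 3). The groups did not overlap, and the difference was 1.59 ± 0.10 (SE, limma adjusted p = 3.1e-08). ZNF812 was also raised to 4.42 ± 0.45 in shG9a (0.89 ± 0.10, adjusted p = 9e-06) and to 4.21 ± 0.24 in shsuz12 (0.83 ± 0.10, adjusted p = 9.6e-06). In shJarid2 it was 1.60, 1.93 and 1.36 RPKM, which overlapped pLKO (adjusted p = 0.21).

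ZNF385B, a C2H2 gene at chr2:179441982-179861505 whose product is a relative of the p53 partner ZNF385A, doubled or more in shPALI1. Its 3 pLKO libraries were at 5.08, 4.91 and 4.99 RPKM and its 3 shPALI1 libraries at 10.9, 13.8 and 11.3, all above pLKO (difference 1.11 ± 0.10, adjusted p = 9.6e-07). ZNF124, a KRAB gene at chr1:247121975-247172016, is a member only through its level in this group and in shG9a (mean 2.54 RPKM without shPALI1). It went from 2.34, 1.87 and 2.78 to 5.13, 5.01 and 5.23 RPKM (0.89 ± 0.10, adjusted p = 9.3e-06). Its neighbour ZNF669, also KRAB, went from 3.76, 4.19 and 4.25 to 6.84, 7.97 and 9.20 RPKM (0.82 ± 0.11, adjusted p = 4.9e-05). ZNF124 and ZNF669 both carry the promoter pair printed above. ZNF260, a KRAB-free gene with 13 fingers, and ZNF253, a KRAB gene with 11, rose by 0.84 ± 0.13 and 0.77 ± 0.08 (adjusted p = 0.00012 and 5.6e-06).

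Falls in shPALI1 were fewer and smaller. ZNF511, among the most abundant members, measured 52.5, 45.4 and 43.9 RPKM in pLKO and 31.9, 27.0 and 27.3 in shPALI1 (-0.70 ± 0.11, adjusted p = 0.0002). The transcribed pseudogene ZNF702P, a member only through its pLKO and shJarid2 levels, went from 3.71 ± 0.36 to 1.87 ± 0.27 RPKM (-0.72 ± 0.12, adjusted p = 0.00032). ZNF350 (ZBRK1, a KRAB repressor that binds BRCA1) went from 6.28 ± 1.1 to 3.77 ± 0.17 RPKM (-0.60 ± 0.11, adjusted p = 0.00061). ZNF467, ZNF367 and ZNF30 were lower by -0.60, -0.55 and -0.53. In each of the 6 the 3 knockdown libraries lay below the 3 control libraries.

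**Figure D1:**
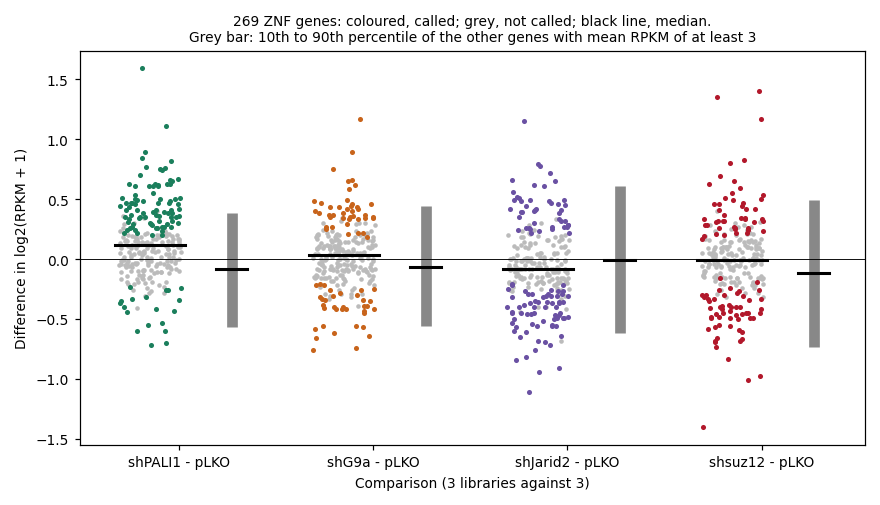
Difference in log2(RPKM + 1) between each knockdown and pLKO for the 269 members (points, coloured where called, black line at the median), beside the 10th to 90th percentile and median of the other genes with a mean of at least 3 RPKM (grey bar). The members' median was above that of the other genes in shPALI1 (0.12 against -0.08), shG9a (0.03 against -0.07) and shsuz12 (-0.01 against -0.12; 0.06 with median ratio scaling or quantile normalization and 0.10 with a common column sum), and below it in shJarid2 (-0.08 against -0.01).

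G9a-depleted cells showed about as many rises as falls among members. Against pLKO, 42 members were higher and 35 lower (15.6% and 13%), while 18.4% of all genes tested were higher and 24.7% lower. The members' median was 0.03 and that of all genes tested -0.04. The split depended on the scaling: median ratio scaling gave 53 higher and 29 lower, quantile normalization 56 and 30, and a common column sum 60 and 20. Under the last, 25% of all genes tested were higher and 18.1% lower, against 22.3% and 7.43% of members. Of all genes tested, median ratio scaling gave 20.9% higher and 22.4% lower, and quantile normalization 23% and 22.9%. With the GC and length correction 63 members were higher and 53 lower (23.4% and 19.7%), against 22% and 30.1% of all genes tested. KRAB members (21 higher, 16 lower of 154) and members without KRAB (20 higher, 17 lower of 109) had the same median, 0.03.

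ZNF385A, whose product binds p53 and 3′ ends of messenger RNA, rose most in shG9a. It was at 6.79, 5.13 and 5.59 RPKM in pLKO and at 14.7, 14.3 and 13.9 in shG9a, with no overlap (1.17 ± 0.10, adjusted p = 9.3e-07). ZNF783, a KRAB gene at chr7:149262171-149297302, went from 2.71 ± 0.24 to 5.24 ± 0.16 RPKM (0.75 ± 0.06, adjusted p = 4.9e-07). ZNF506 (0.66), ZNF609 (0.65) and ZNF518A (0.62), the last a reported partner of H3K9 methyltransferases, were also higher in all 3 shG9a libraries than in any pLKO library.

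The largest fall in shG9a was that of ZNF771. It was at 11.3, 9.41 and 7.49 RPKM in pLKO and at 4.95, 5.52 and 4.75 in shG9a (-0.76 ± 0.16, adjusted p = 0.0015). ZNF367, a cell cycle linked factor, went from 9.04 ± 0.064 to 5.04 ± 0.60 RPKM (-0.74 ± 0.10, adjusted p = 6.3e-05). ZNF639 went from 8.6 ± 1 to 5.16 ± 0.43 RPKM (-0.64 ± 0.09, adjusted p = 0.0001), and ZNF702P was lower by -0.66. ZNF143, a promoter-binding activator, measured 12.1, 13.2 and 11.4 RPKM in pLKO and 8.25, 7.52 and 7.84 in shG9a (-0.58 ± 0.07, adjusted p = 2.5e-05). ZNF593, a nucleolar factor of large ribosomal subunit maturation, was lower by -0.62 ± 0.20 (adjusted p = 0.025). That last call was lost without pLKO replicate 1 (-0.50, adjusted p = 0.1), pLKO replicate 3 (-0.62, 0.052), shG9a replicate 2 (-0.49, 0.11) or shG9a replicate 3 (-0.58, 0.072).

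In JARID2-depleted cells, 46 members were higher than in pLKO and 68 lower (17.1% and 25.3%), while 23.8% of all genes tested were higher and 27.2% lower. The share of falls among members was thus near that of all genes, and the excess of falls over rises depended on the scaling. Median ratio scaling gave 57 higher and 59 lower, quantile normalization 54 and 55, and a common column sum 39 and 64. Under these scalings, in the same order, 27.6%, 25.3% and 22.3% of all genes tested were higher and 24%, 26.4% and 28% lower. The median was -0.08 for members and -0.04 for all genes tested, and it was -0.03 and -0.04 for members under the first 2 of those scalings. Without shJarid2 replicate 3, which had the lowest member share of all RPKM (0.6251%), 52 were higher and 71 lower, with a median of -0.07. When only the shJarid2 and pLKO libraries were fitted, 27 were higher and 45 lower. KRAB members had 25 higher and 45 lower of 154 (median -0.13), and members without KRAB 19 higher and 22 lower of 109 (median -0.07). The share of falls among KRAB members was thus also near the 27.2% of all genes tested.

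ZNF667, a KRAB gene with 14 fingers at chr19:56439325-56478065, fell most. It was at 4.62, 5.01 and 5.12 RPKM in pLKO and at 1.84, 1.89 and 1.49 in shJarid2, well apart (-1.11 ± 0.10, adjusted p = 6.2e-07). ZNF268, a KRAB gene with 24 fingers, went from 6.15, 6.39 and 5.91 to 3.26, 2.60 and 2.35 RPKM (-0.94 ± 0.08, adjusted p = 3.9e-07). ZNF385B went from 4.99 ± 0.084 to 2.20 ± 0.42 RPKM (-0.91 ± 0.10, adjusted p = 3.8e-06), the opposite side of pLKO from its place in shPALI1. ZNF736 (-0.84), ZNF587B (-0.82) and ZNF844 (-0.76), all with KRAB, were lower in each shJarid2 library than in any pLKO library. Of the 6 largest falls 5 were in KRAB genes, which were 154 of the 263 members with a protein. The 6 were picked by size from these same values, so this count says nothing about KRAB members as a set.

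ZNF467, a KRAB-free gene with 12 fingers, rose most in shJarid2. It was at 12.1, 9.92 and 10.2 RPKM in pLKO and at 22.5, 23.5 and 29.4 in shJarid2 (1.15 ± 0.13, adjusted p = 3.9e-06). ZNF358 went from 27.8, 20.8 and 18.2 to 34.4, 34.6 and 48.6 RPKM (0.79 ± 0.14, adjusted p = 0.00034). ZNF385A (0.78), ZNF688 (0.72), ZNF75D (0.66) and ZNF613 (0.65) were also higher with no overlap. In ZNF467 and ZNF358 replicate 3 was the highest of the group, and in both the other libraries also lay above every pLKO library.

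In SUZ12-depleted cells, 48 members were higher and 57 lower, that is 17.8% and 21.2%, while 21.1% of all genes tested were higher and 32.8% lower. The members' median was -0.01 and that of all genes tested -0.08. The sign of the members' median depended on the scaling, being 0.06 with median ratio scaling (70 higher, 47 lower) or quantile normalization (70 higher, 48 lower) and 0.10 with a common column sum (69 higher, 36 lower). The common column sum moved the median of all genes by 0.11 and their split to 27.4% higher and 24% lower. Median ratio scaling gave 25.6% and 27.1% of all genes, and quantile normalization 27% and 28%. KRAB members had 26 higher and 27 lower of 154, and members without KRAB 21 higher and 29 lower of 109.

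ZNF385A rose most and ZNF367 fell most. ZNF385A was at 16.4, 17.1 and 17.4 RPKM, 2.91 times its pLKO mean of 5.84 ± 0.86 (1.40 ± 0.10, adjusted p = 9.5e-08). ZNF219, a GC-rich KRAB-free gene on chromosome 14, went from 5.30, 4.08 and 3.13 to 11, 11.8 and 13.4 RPKM (1.35 ± 0.13, adjusted p = 1.1e-06). ZNF783 was at 7.22, 7.30 and 7.46 RPKM, above every other library (1.17 ± 0.06, adjusted p = 6.6e-09). ZNF337, a KRAB gene with 19 fingers, and ZNF79 rose by 0.80 and 0.69.

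ZNF367 was at 8.98, 9.11 and 9.02 RPKM in pLKO and at 2.68, 2.70 and 3.01 in shsuz12 (-1.40 ± 0.10, adjusted p = 9.5e-08). ZNF580, a 3-finger gene at chr19:55635016-55643469, went from 13.9, 11 and 9.63 to 4.62, 5.53 and 5.37 RPKM (-1.01 ± 0.14, adjusted p = 3.5e-05). ZNF593 went from 21.6 ± 3.6 to 10.4 ± 1.7 RPKM (-0.98 ± 0.20, adjusted p = 0.001). ZNF883 (-0.83), ZNF844 (-0.73) and ZNF584 (-0.69) were lower in every shsuz12 library than in any pLKO library.

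**Figure D2:**
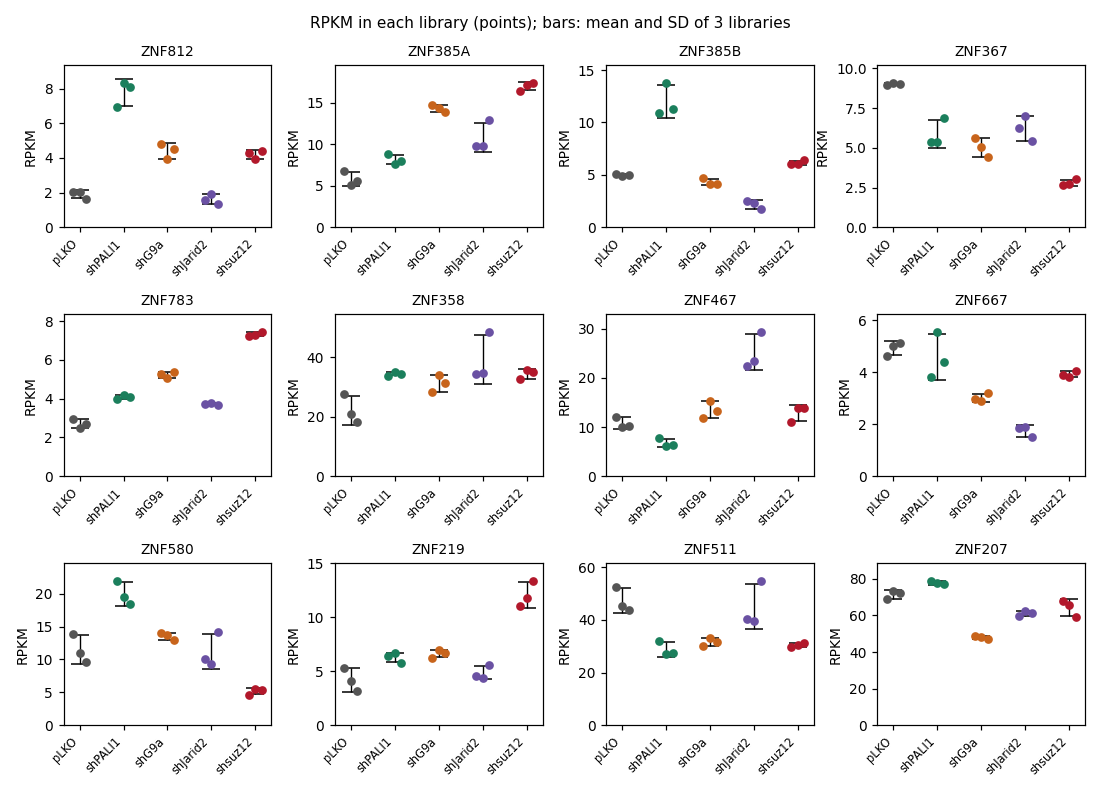
RPKM of 12 named members in each of the 15 libraries (points), with the mean and SD of each group of 3. ZNF385A and ZNF783 are higher and ZNF367 is lower than in pLKO in every knockdown library, whereas ZNF385B is high in shPALI1 (10.9 to 13.8 RPKM) and low in shJarid2 (1.74 to 2.55 RPKM).

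Some members were called on the same side of pLKO in every knockdown. The 4 comparisons share the pLKO libraries, so each comparison's own values are given side by side and their likeness is not counted as evidence. ZNF385A differed by 0.43 in shPALI1, 1.17 in shG9a, 0.78 in shJarid2 and 1.40 in shsuz12. ZNF783 differed by 0.46, 0.75, 0.35 and 1.17, in the same order. ZNF358 differed by 0.63, 0.49, 0.79 and 0.63, but its shG9a call was lost without pLKO replicate 3 (0.36, adjusted p = 0.065) or shG9a replicate 2 (0.42, adjusted p = 0.055). ZNF506, a KRAB gene, differed by 0.75, 0.66, 0.56 and 0.27, and its shsuz12 value missed the threshold without pLKO replicate 1 (0.23, adjusted p = 0.12), pLKO replicate 2 (0.28, 0.069), shsuz12 replicate 1 (0.19, 0.17) or shsuz12 replicate 3 (0.26, 0.094).

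On the low side, ZNF367 differed by -0.55 in shPALI1, -0.74 in shG9a, -0.48 in shJarid2 and -1.40 in shsuz12. ZNF146 (OZF, a protein made almost only of fingers) was at 33.8, 34.6 and 34.5 RPKM in pLKO and between 19.4 and 28.6 in every other library, with differences of -0.44, -0.34, -0.60 and -0.40. With a common column sum its shG9a and shsuz12 calls were lost (-0.23, adjusted p = 0.15, and -0.28, adjusted p = 0.071), and the shG9a call also with quantile normalization (-0.24, adjusted p = 0.052). ZNF584 differed by -0.24, -0.42, -0.31 and -0.69. Its shPALI1 call was lost without pLKO replicate 1 (-0.18, adjusted p = 0.14), pLKO replicate 3 (-0.24, 0.073), shPALI1 replicate 2 (-0.22, 0.097) or shPALI1 replicate 3 (-0.22, 0.1), and under the 3 other scalings.

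Direct contrasts of 2 knockdowns do not use pLKO. Against shG9a, 82 members were higher and 21 lower in shPALI1, while all genes tested split evenly (24.1% each way). The members' median was 0.08 and that of all genes 0.01. With a common column sum the split was 56 and 29, and that of all genes tested 18.6% and 29.5%. ZNF385B (1.29 ± 0.10, adjusted p = 1.3e-07), the pseudogene ZNF542P (0.83 ± 0.07, adjusted p = 1.6e-07) and ZNF771 (0.80 ± 0.16, adjusted p = 0.00088) were higher in shPALI1. ZNF542P was at 12.4, 13.5 and 11.9 RPKM in pLKO, at 17.2, 16 and 18.1 in shPALI1 and at 9.17, 9.14 and 9.22 in shG9a, so that the 2 knockdowns lay on either side of the control. ZNF467 (-0.90), ZNF385A (-0.74) and ZNF217 (-0.68), an oncogene that works with the CoREST and CtBP corepressors, were lower in shPALI1 than in shG9a.

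Against shsuz12, 106 members were higher and 28 lower in shPALI1, while 30.9% of all genes tested were higher and 25% lower. The split was 71 and 36 with a common column sum, and that of all genes tested 24.1% and 30.2%. ZNF580 differed most (1.77 ± 0.14, adjusted p = 1.3e-07), at 22, 19.5 and 18.5 RPKM in shPALI1 and about 5 in shsuz12. ZNF883 (1.30) and ZNF260 (0.91) were also higher in shPALI1, and ZNF385A (-0.98), ZNF219 (-0.84) and ZNF467 (-0.84) lower.

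Within PRC2, 85 members were higher and 59 lower in shsuz12 than in shJarid2, while 25.2% of all genes tested were higher and 33.8% lower. Without shJarid2 replicate 3 the split was 79 and 69, and with a common column sum 110 and 39. That last scaling turned the split of all genes tested to 33% higher and 24.7% lower, against 40.9% and 14.5% of members. ZNF385B (1.17), ZNF219 (1.16) and ZNF337 (1.00) were higher in shsuz12. ZNF652 was at 4.92, 4.6 and 4.51 RPKM in shsuz12 and at 14.2, 13.1 and 8.80 in shJarid2 (-1.17 ± 0.13, adjusted p = 3.2e-06). ZNF274, a KRAB protein that binds the ends of other ZNF genes and recruits SETDB1, was at 7.87, 8.46 and 7.52 RPKM in shsuz12 and at 16.1, 15.9 and 17.5 in shJarid2, with pLKO between (11.4, 12.9 and 12; -0.97 ± 0.07, adjusted p = 9.6e-08). ZNF593 was also lower in shsuz12 (-0.98 ± 0.20, adjusted p = 0.00087).

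Runs of ZNF genes on chromosome 19, joined where neighbouring starts lay less than 500 kb apart, are described by their counts alone. In the run at chr19:19668796-24129961, 7 of 12 members rose in shPALI1 and the other 5 were not called (median 0.46, and 0.36 after the GC and length correction). Without ZNF14 and ZNF737, which are members only through their shPALI1 level, 5 of 10 rose (median 0.42). The 7 were ZNF14, ZNF506, ZNF253, ZNF737, ZNF431, ZNF708 and ZNF254, all named after their values were seen. ZNF431 went from 2.52, 2.61 and 2.65 to 4.88, 4.75 and 4.87 RPKM (0.70 ± 0.10, adjusted p = 5.1e-05). The run's members had a median GC content of 37.4%, and the part of GC content in the rise beyond that correction was not tested. In shG9a 4 of the 12 were called, all higher, in shJarid2 4 rose and 3 fell, and in shsuz12 2 were called, both higher.

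The run at chr19:8509678-9793180 had 5 of 9 members higher in shPALI1 and the other 4 not called (median 0.33). The run at chr19:11483427-12640098 had 1 of 10 lower and the other 9 not called (median -0.06). In shJarid2 this last run had 5 of 10 members lower and 5 not called (median -0.32, and -0.28 without shJarid2 replicate 3). Without ZNF441 and ZNF625, which pass the threshold only through their shG9a and pLKO levels, 3 of 8 were lower (median -0.17). The 5 lower members were ZNF627, ZNF441, ZNF844, ZNF625 and ZNF791, named after their values were seen. The most distal run, chr19:57191500-58481230, had 8 of 27 lower and 2 higher in shJarid2 (median -0.20, and -0.15 without replicate 3), a share of falls near the 27.2% of all genes tested. It holds ZNF274, ZNF584 and ZNF587B. Differences between runs were not tested.

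**Figure D3:**
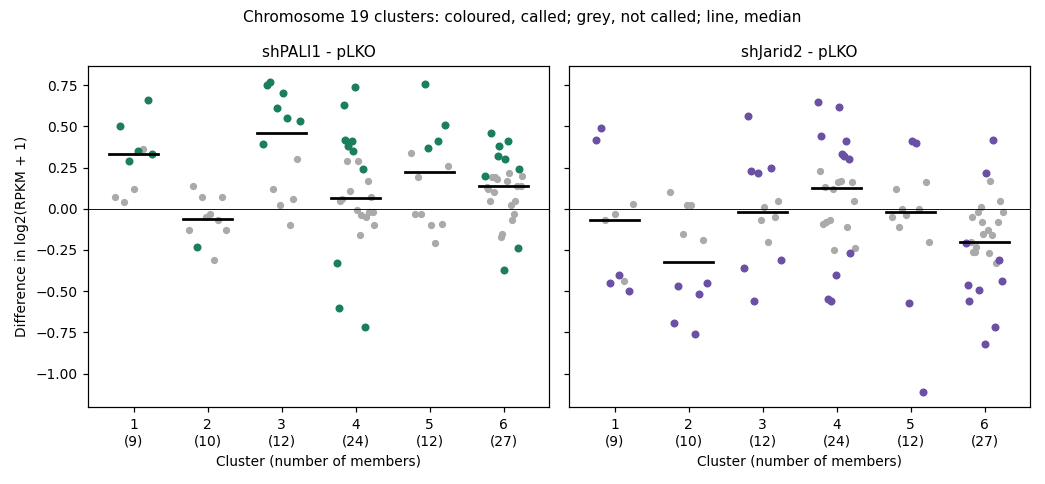
Difference in log2(RPKM + 1) from pLKO of the members in 6 runs of ZNF genes on chromosome 19, numbered from the short-arm end, in shPALI1 and shJarid2 (points, coloured where called, line at the median). In shPALI1 the medians of runs 1 and 3 are 0.33 and 0.46 and that of run 2 is -0.06, and in shJarid2 the medians of runs 2 and 6 are -0.32 and -0.20.

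Among the members with the CCAATCAG and CTTCCGG pair, 9 of 17 rose in shPALI1 and the other 8 were not called (median 0.36, and 0.26 after the GC and length correction). Of the 9, ZNF124 and ZNF737 are members only through their shPALI1 level, and without them 7 of 15 rose (median 0.30). By comparison, 60 of the 212 members with a promoter but without the pair rose and 14 fell (median 0.11). ZNF124, ZNF669, ZNF431, ZNF737 and ZNF195 were among the 9. ZNF195, a KRAB gene on chromosome 11, went from 9.02, 10.3 and 10.3 to 13.7, 15 and 14.2 RPKM (0.49 ± 0.06, adjusted p = 2.2e-05). ZNF680, ZNF107 and ZNF91, which also carry the pair, did not pass (-0.19, 0.09 and 0.06). In shJarid2 8 of the 17 fell and 2 rose (median -0.22), and in shG9a 5 rose and 1 fell. Without shJarid2 replicate 3, 4 fell and 2 rose in shJarid2. Outside the members, 23 tested genes had the pair, of which 7 were higher and 4 lower in shPALI1. The 17 share promoter letters and so are not independent of each other. They also overlap the run at chr19:19668796-24129961. ZNF254, ZNF431, ZNF708 and ZNF737 rose in shPALI1 and are counted both here and in that run. ZNF675 and ZNF91, not called in shPALI1, lie in it as well.

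**Figure D4:**
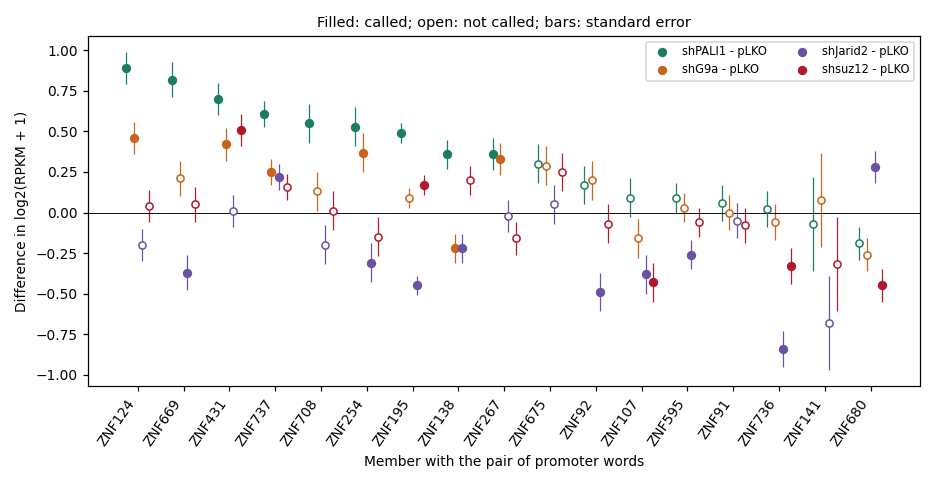
Difference in log2(RPKM + 1) from pLKO, with its standard error, of the 17 members with the promoter pair in the 4 knockdowns (filled where called). ZNF124 (0.89) to ZNF267 (0.36) are called higher in shPALI1, and 8 members, from ZNF736 (-0.84) to ZNF138 (-0.22), are called lower in shJarid2.

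Members with described roles were then read one by one. ZNF91, with 31 fingers, was at 7.46 to 9.99 RPKM in the 15 libraries and passed in no comparison (-0.08 to 0.06). ZNF10 (KOX1, the source of the KRAB domain used in synthetic repressors) was lower in shJarid2 (-0.46 ± 0.10, adjusted p = 0.0015). It is a member only through its shPALI1 and pLKO levels, so this fall from pLKO is partly a product of the rule. ZNF518A was higher in shPALI1 (0.61 ± 0.15, adjusted p = 0.0049), where it went from 3.08, 3.41 and 3.04 to 4.64, 6.11 and 5.44 RPKM. Its relative ZNF518B was not called there (0.40 ± 0.18, adjusted p = 0.093). Under some alternatives ZNF518B did pass in shPALI1. These were quantile normalization (0.45, adjusted p = 0.034), the GC and length correction (0.38, 0.0086) and the fit of shPALI1 and pLKO alone (0.40, 0.01). ZNF638, which works with the HUSH complex on retroviral DNA, was lower in shJarid2 (-0.40 ± 0.11, adjusted p = 0.0055), and missed the threshold when those 2 groups were fitted alone (adjusted p = 0.055).

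Among corepressor partners, ZNF827, which recruits NuRD to telomeres, was at 3.42, 3.26 and 3.50 RPKM in pLKO and rose in shPALI1 (0.47 ± 0.11, adjusted p = 0.003) and shG9a (0.48 ± 0.11, adjusted p = 0.0024). The ZMYND8 partners ZNF687, ZNF592 and ZNF532 had differences between -0.10 and 0.40 in the 4 comparisons, of which that of ZNF592 in shG9a (0.40 ± 0.10, adjusted p = 0.0047) was the largest. ZNF217 measured 39.5, 45.7 and 44.5 RPKM in pLKO and 60.0, 57.8 and 57.4 in shG9a (0.43 ± 0.14, adjusted p = 0.023). That call was lost without pLKO replicate 1 (0.37, adjusted p = 0.085) or without any 1 shG9a library (0.41 to 0.44, adjusted p = 0.05 to 0.065).

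Among factors, ZNF143 was lower in shJarid2 as in shG9a (-0.53 ± 0.07, adjusted p = 3.4e-05), and its relative ZNF76 was lower in shsuz12 (-0.30 ± 0.08, adjusted p = 0.0052). ZNF410, which controls CHD4 in red cells, was higher in shG9a (0.35 ± 0.07, adjusted p = 0.0018) and shJarid2 (0.39 ± 0.07, adjusted p = 0.00062). CHD4 was at 58.7 ± 0.42 RPKM in pLKO, 84.2 ± 1.5 in shG9a and 54.6 ± 4.2 in shJarid2. ZNF24, a SCAN gene, went from 26.8 ± 2.1 to 17.2 ± 4.0 RPKM in shJarid2 (-0.64 ± 0.13, adjusted p = 0.0012). ZNF384 and ZNF335 were also lower there (-0.37 and -0.35).

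Several members that act on RNA or in the cytoplasm were also called. ZNF207 was at 68.8, 73.6 and 72.3 RPKM in pLKO and at 48.6, 48.3 and 47.0 in shG9a (-0.57 ± 0.06, adjusted p = 5.3e-06). In shsuz12 ZNF622, a maturation factor of the large ribosomal subunit, was at 13.4, 14.1 and 14.3 RPKM against 20.3, 19.6 and 19.8 in pLKO (-0.49 ± 0.09, adjusted p = 0.00063). ZNF598, the ubiquitin ligase that senses collided ribosomes, was also lower there (-0.33 ± 0.09, adjusted p = 0.007). ZNF326, of the DBIRD complex that couples transcription to splicing, was lower in shG9a (-0.40), shJarid2 (-0.36) and shsuz12 (-0.49), and its shG9a call was lost with a common column sum (-0.30, adjusted p = 0.073). ZNF330 and ZNF451 passed in no comparison in the main fit. With the GC and length correction, ZNF451 passed in shG9a (0.29, adjusted p = 0.0016), shJarid2 (-0.19, 0.02) and shsuz12 (0.21, 0.01).

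**Figure D5:**
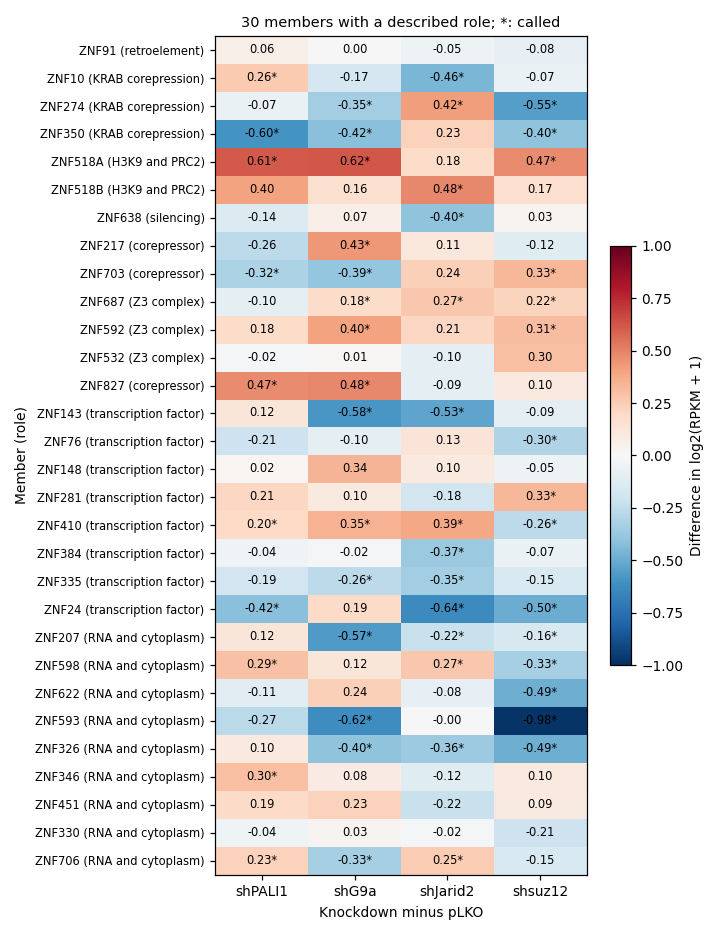
Difference in log2(RPKM + 1) from pLKO (colour and number, asterisk where called) of the 30 members with a described role, ordered by role. ZNF593 in shsuz12 (-0.98) is the lowest value and ZNF518A in shG9a (0.62) the highest, and ZNF91, ZNF532, ZNF148, ZNF451 and ZNF330 carry no asterisk.

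The repressor machinery that KRAB proteins call on was measured in the same libraries, from a list of 37 genes of which 36 were tested. In shPALI1 7 were higher and 6 lower (median 0.03), in shG9a 7 and 14 (-0.20), in shJarid2 5 and 13 (-0.11), and in shsuz12 5 and 17 (-0.19). Of all genes tested, 25.1%, 24.7%, 27.2% and 32.8% were lower in the same order. The 14 genes lower in shG9a include EHMT2, the target of its own hairpin. With a common column sum the counts were 10 and 12 in shG9a and 7 and 9 in shsuz12, when 18.1% and 24% of all genes tested were lower. TRIM28 was at 151 ± 17 RPKM in pLKO and at 113 ± 16 in shJarid2 (-0.42 ± 0.09, adjusted p = 0.0019) and 107 ± 1.4 in shsuz12 (-0.49 ± 0.09, adjusted p = 0.00055). SETDB1 was lower in shJarid2 (82.9% of pLKO, adjusted p = 0.011). Among the HP1 genes, CBX5 was lower in shPALI1 (49.2% of pLKO) and shsuz12 (68.1%). CBX1 was lower in shJarid2 (28.3%) and shG9a (77.8%) and higher in shPALI1 (127%), and CBX3 was lower in shsuz12 (59.4%) and shG9a (80%). DNMT1, the maintenance DNA methyltransferase, was at 70.6%, 68.6%, 47.4% and 54.2% of pLKO in shPALI1, shG9a, shJarid2 and shsuz12, and all 4 values passed the test. WIZ, a zinc finger partner of G9a, was higher in shG9a (127%), shJarid2 (171%) and shsuz12 (143%). Whether these levels had a part in the members' values was not tested.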

How the data were processed

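Per the labels' protocols, total RNA was isolated with a NucleoSpin kit and the NEBNext Ultra kit was used for library construction. The authors deposited 1 table of RPKM values, and STAR and hg38 are named in the submitters' processing notes. For the STAR version, counter and annotation: not given in the sources used here. log2(RPKM + 1) was tested with limma 3.58.1 (R 4.3.3), with a mean-variance trend, in 1 model over the 15 libraries, for the 12715 genes that reached RPKM 1 in 3 or more libraries. Benjamini-Hochberg adjustment ran over all genes of each of 7 comparisons, and the threshold was 0.05. The test was also tried on simulated data. Positions, GC content and translated proteins came from GENCODE 29, in place of the RefSeq proteins first planned, with KRAB found by a profile (pyhmmer 0.12.3, E of at most 0.001) built from 293 windows of 40 residues. Promoters came from RefSeq. Named are the 6 called members with the largest change each way against pLKO whose groups do not overlap, 3 each way in contrasts of 2 knockdowns, members called in all 4 comparisons with pLKO, the 5 highest, those beside the threshold and those with a described role. The members and lists were chosen with earlier results of these data known.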

Additional observations from a re-analysis of the deposited data

Results flagged for a closer look

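Several named members were called on opposite sides of pLKO in 2 knockdowns, with limma's test of the difference between those knockdowns also passed. Over all members this held for 36 pairs of a member and a contrast, 6 between shPALI1 and shG9a, 12 between shPALI1 and shsuz12 and 18 between shsuz12 and shJarid2. The same count was not made over all genes tested, so whether these numbers are unusual cannot be said. Both sides of each pair share the pLKO libraries, while the test of the difference does not use them. The differences of the named members follow, each with its SE.

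In shPALI1 against shG9a, the pseudogene ZNF542P (0.41 and -0.42 against pLKO) differed by 0.83 ± 0.07 (adjusted p = 1.6e-07) and ZNF706 (0.23 and -0.33) by 0.56 ± 0.09 (adjusted p = 0.00012). In shPALI1 against shsuz12, ZNF580 (0.76 and -1.01) differed by 1.77 ± 0.14 (adjusted p = 1.3e-07) and ZNF883 (0.48 and -0.83) by 1.30 ± 0.13 (adjusted p = 1e-06). ZNF598 (0.29 and -0.33) differed by 0.62 ± 0.09, ZNF410 (0.20 and -0.26) by 0.46 ± 0.07 and ZNF703 (-0.32 and 0.33) by -0.64 ± 0.11.

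In shsuz12 against shJarid2, 9 of the 18 members were higher in shsuz12 and 9 in shJarid2. Among the named ones, ZNF385B (0.25 and -0.91) was the 1 on the higher side in shsuz12, with a difference of 1.17 ± 0.10 (adjusted p = 2.5e-07). ZNF652 (-0.68 and 0.49) differed by -1.17 ± 0.13, ZNF274 (-0.55 and 0.42) by -0.97 ± 0.07 and ZNF613 (-0.31 and 0.65) by -0.96 ± 0.08. ZNF702P (-0.49 and 0.41), a member only through its pLKO and shJarid2 levels, differed by -0.91 ± 0.12. ZNF410 (-0.26 and 0.39) differed by -0.64 ± 0.07 and ZNF598 (-0.33 and 0.27) by -0.59 ± 0.09. The libraries of a knockdown overlapped those of pLKO for ZNF703 in shPALI1 and shsuz12 and for ZNF598 in shJarid2. Calls of ZNF410, ZNF598, ZNF703 and ZNF706 against pLKO were lost under some alternatives. Groups of 3 were too small for a test of single outlying libraries.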

How the results depend on the processing

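Counts of called members moved by more than 1.5 times under few alternatives. With the GC and length correction, lower members numbered 30 in shPALI1 (against 19), 53 in shG9a (against 35) and 36 in shPALI1 against shG9a (against 21). Of all genes tested, 29.5%, 30.1% and 27.3% were lower with it, against 25.1%, 24.7% and 24.1%. A common column sum gave 20 lower in shG9a, 36 lower in shsuz12 (against 57) and 39 lower in shsuz12 against shJarid2 (against 59). Of all genes tested it gave 18.1%, 24% and 24.7% lower, against 24.7%, 32.8% and 33.8%. Fitting 2 groups alone gave 27 higher and 45 lower in shJarid2 (against 46 and 68) and 33 lower in shPALI1 against shG9a. The causes were not tested. The replicate numbers do not pair the libraries (correlations of same-numbered deviations from -0.271 to 0.301). With the replicate number as a block, 81 members were higher and 17 lower in shPALI1, 40 and 32 in shG9a, 48 and 66 in shJarid2, and 45 and 56 in shsuz12. The block with the GC and length correction gave 31 lower in shPALI1, 66 higher and 56 lower in shG9a, and 35 lower in shPALI1 against shG9a. Without 1 library at a time, 70 to 76 members were higher and 13 to 17 lower in shPALI1, 33 to 41 and 27 to 34 in shG9a, 35 to 52 and 58 to 80 in shJarid2, and 34 to 42 and 49 to 59 in shsuz12. Without the 13 members that 1 group brought over the threshold, an alternative chosen after seeing the data, 79 were higher and 17 lower in shPALI1. Of 134 called values of named members, 102 kept their call under every alternative run and 32 lost it under at least 1. Of the named values that were not called, 30 passed under at least 1 alternative. ZNF207 in shsuz12 (-0.16) was the 1 value that reversed, to 0.01 with quantile normalization.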
